A study of Mus musculus with 16 samples.

Results

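A group of 35 genes of the cell cycle and of DNA replication was followed through 16 RNA libraries of mouse colon. The genes were chosen by name, from those whose RNA marks cycling cells, and all 35 were found among the 56748 genes of the deposited table. HSCR mice (Ednrb -/-, the Ednrb tm1Ywa allele on a hybrid C57BL6/J-129Sv background) carry a disrupted endothelin B receptor gene in all cells, and they were compared with WT (Ednrb +/+) mice. The paper calls the distal colon of HSCR mice aganglionic, and reports sparse and small ganglia in its sections. The mice were 2 to 4 weeks old, and no treatment is named. The tissue was the LMMP, the longitudinal muscle with the myenteric plexus, dissected from the proximal and the distal colon, with 4 libraries in each of the groups WT proximal, HSCR proximal, WT distal and HSCR distal. Nothing in the labels says whether the same mice gave both segments, and the tissue entries of the distal samples name the proximal colon, so segments follow the titles.

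A cell that divides copies its DNA in S phase and separates the copies in M phase. Cyclin E and E2F1 start S phase, the MCM helicase opens the double strand, and PCNA, the sliding clamp, holds the polymerases on it. CDK1 with cyclins A and B then drives mitosis, Aurora and Polo kinases build the spindle, and the anaphase promoting complex ends it. In the colon the cells that divide most are those of the epithelial crypts, which a clean LMMP preparation leaves behind, while in young mice muscle, glial, vascular and immune cells can divide too. Bulk RNA cannot tell apart more cells in cycle from more of this RNA per cell.

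The same genes are known to share control sequences before their start sites: E2F sites in genes used for replication, and CCAAT boxes and the cell cycle homology region (CHR) in genes used for mitosis. The 250 bases upstream of the start are shown for 3 members because they hold these letters in different combinations. The sequences are those of RefSeq on GRCm38.p6, in which 29 of the 35 genes were found. Capitals mark matches on either strand. The CHR was searched as TTTGAA. The box bound by NF-Y was searched as CCAAT. The main form of the E2F site was TTGGCGC, and other forms accepted for it were TTCCCGC and TTCGCGC.
Cdk1, chr10:69352913-69353162, minus strand: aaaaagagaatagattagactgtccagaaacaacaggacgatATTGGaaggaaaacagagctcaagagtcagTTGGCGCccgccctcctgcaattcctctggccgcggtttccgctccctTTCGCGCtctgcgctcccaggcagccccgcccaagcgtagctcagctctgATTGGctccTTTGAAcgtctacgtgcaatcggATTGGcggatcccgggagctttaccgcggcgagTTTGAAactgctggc
Ccnb2, chr9:70421555-70421804, minus strand: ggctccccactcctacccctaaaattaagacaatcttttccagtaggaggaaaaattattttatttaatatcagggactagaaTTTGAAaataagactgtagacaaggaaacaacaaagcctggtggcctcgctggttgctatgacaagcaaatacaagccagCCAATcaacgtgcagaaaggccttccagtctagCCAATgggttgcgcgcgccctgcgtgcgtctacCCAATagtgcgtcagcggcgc
Mcm5, chr8:75109259-75109508, plus strand: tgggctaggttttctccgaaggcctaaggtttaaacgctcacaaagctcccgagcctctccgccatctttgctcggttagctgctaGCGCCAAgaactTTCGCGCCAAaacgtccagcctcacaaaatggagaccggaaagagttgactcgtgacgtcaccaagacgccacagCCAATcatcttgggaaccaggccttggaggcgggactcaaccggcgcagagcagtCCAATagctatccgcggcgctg

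Cdk1, the kinase of mitosis, held all 3 kinds of letters, Ccnb2 (cyclin B2) held CCAAT and CHR letters, and Mcm5, a helicase subunit, held CCAAT and E2F letters. In Mcm5 a pair of E2F matches on opposite strands overlapped, and E2F and CCAAT letters can also share bases. CCAAT stood upstream of 24 of the 29 members (82.8%), against 34.5% of 27025 genes with a sequence. E2F letters stood upstream of 6 members (20.7%, against 6.79%) and CHR letters of 8 (27.6%, against 16.3%). Top2a and Ube2c each held 6 CCAAT matches, the most of any member, and Mcm6 held 4 E2F matches. Only the first listed start of each gene was searched. For E2f1, looked at along with the 3 genes shown, that stretch appears to lie inside the gene, in coding sequence. It held none of these letters, which says nothing about the E2f1 promoter, and E2f1 still counts among the 29. Birc5, Ccne1, Nusap1 and Tyms also held none, and their listed starts were not checked. Ccna2, Foxm1, Mcm4, Aurkb, Tpx2 and Kif20a had no entry in the table.

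Several libraries stood apart, and some went against their labels. The files gave 21384372 to 45831881 counted reads per library, of which mitochondrial genes took 4.32% to 49.8%. In the proximal colon that share was 49.8%, 17.8%, 7.31% and 34.6% in WT and 5.56%, 6.68%, 6.34% and 20.1% in HSCR libraries, and its part in the results was not tested beyond leaving those genes out. Values below are CPM, read counts scaled to library size and by TMM, edgeR's normalization factor, over all 16 libraries, unless another scale is named. Ednrb itself lay at 33.8 to 67.1 CPM in WT proximal, 7.84 to 37.4 in HSCR proximal and 11.8 to 43.0 in WT distal libraries. It lay at 5.43, 6.10 and 9.48 in HSCR distal replicates 2 to 4 but at 94.7, the highest of all 16, in the library labelled HSCR distal 1. Counts per gene cannot show whether such reads come from the disrupted allele. Hoxd13, a gene of the posterior gut, lay at 117 CPM or more in every WT distal library and at 0.615 in the library labelled HSCR distal 1, while the one labelled HSCR proximal 1 had 125 against 0.662 to 2.35 in the other HSCR proximal libraries. Over 10 genes of enteric neurons mean log2 CPM was 5.28 in the library labelled HSCR distal 1 against -1.17 to 1.41 in the other HSCR distal libraries. It was 1.5 in the one labelled HSCR proximal 1 against 1.61, 6.40 and 6.06 in HSCR proximal 2 to 4. Among WT libraries, WT distal 1 was poor in neuron RNA too, at 1.28 against 4.29, 7.16 and 6.79 in WT distal 2 to 4. Its value lay within the range of the other HSCR distal libraries. HSCR distal 4 had 14 CPM of Hoxd13, against 113 and 219 in HSCR distal 2 and 3. The segment of the libraries labelled HSCR proximal 1 and HSCR distal 1, and the genotype of the latter, are therefore in doubt, and so is the segment of HSCR distal 4. The comparisons that use the first pair are given with and without it. HSCR proximal 2 held little muscle RNA, with a sum of 4410 CPM over 8 smooth muscle genes against 23800 or more in every other library. Its sum over 14 epithelial genes was 15300 CPM, against 5580 or less elsewhere. WT distal 2 had 739 CPM summed over 6 genes of pancreatic acinar cells, against 27.3 or less elsewhere. HSCR proximal 2, WT distal 2 and WT distal 1 were kept, except where single libraries were left out.

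The cell cycle genes varied more between libraries than most genes did, and they varied together. Averaged over the 35 genes, log2 CPM was 4.39, 2.86, 3.18 and 4.10 in WT proximal libraries 1 to 4, and 5.68, 4.65, 4.21 and 1.43 in the HSCR proximal ones. It was 3.99, 2.57, 3.36 and 0.78 in WT distal libraries and 6.08, 3.21, 3.81 and 0.82 in HSCR distal libraries. All 4 groups overlapped, with means of 3.63 ± 0.729, 3.99 ± 1.82, 2.68 ± 1.39 and 3.48 ± 2.16 in the same order (SD, n = 4). Of the 35 genes, 29 were highest in the library labelled HSCR distal 1, 4 in the one labelled HSCR proximal 1, and 2, Pcna and Birc5, in HSCR proximal 2. The lowest value fell in HSCR distal 4 for 12 genes, HSCR proximal 4 for 9, WT distal 4 for 7, WT proximal 2 for 5 and WT distal 2 for 2.

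**Figure D1:**
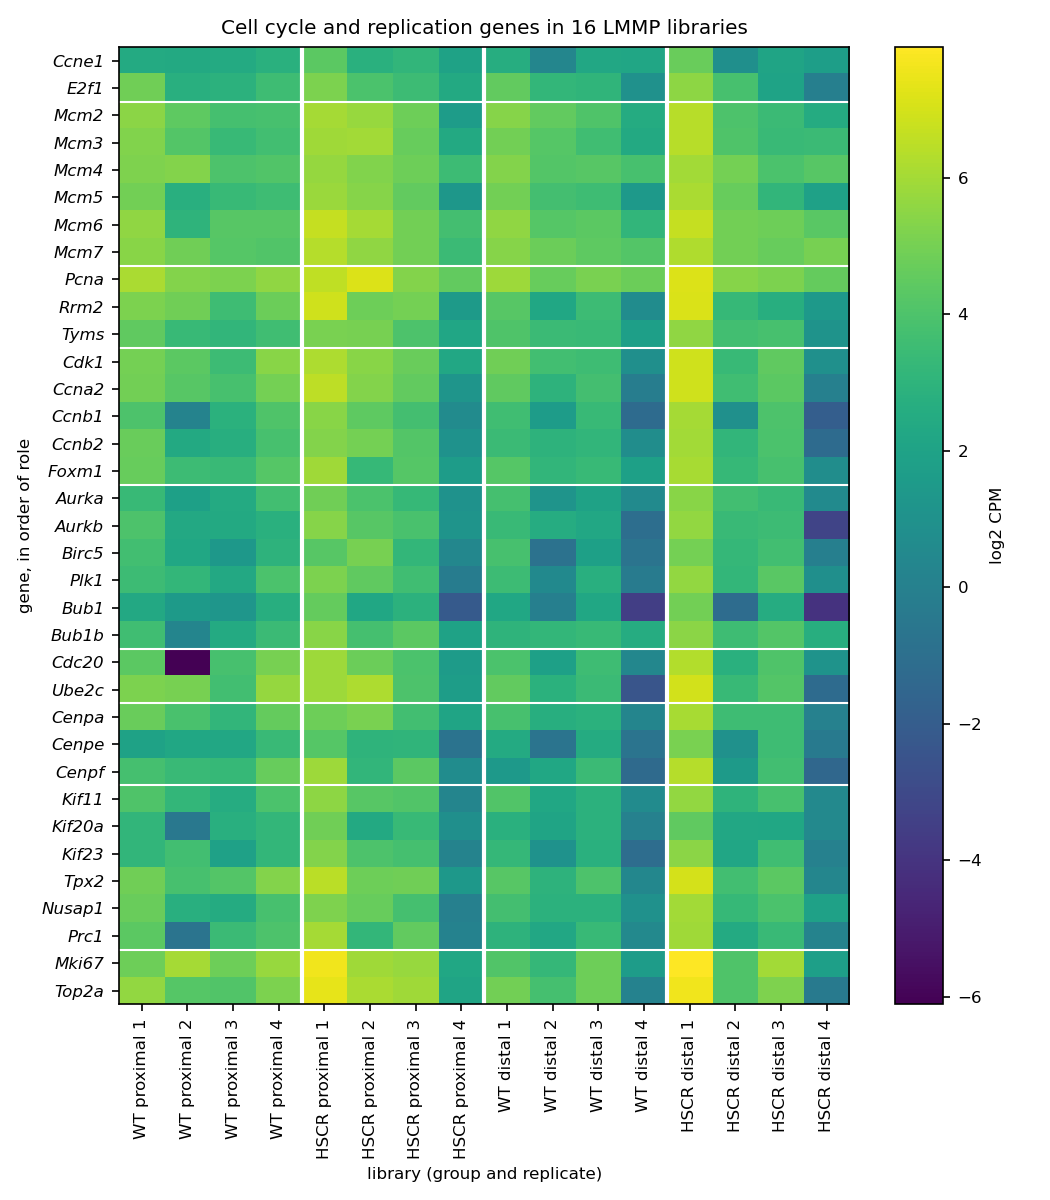
Each row is 1 of the 35 genes, in order of role (white lines), each column 1 library, and the colour is log2 CPM. The columns of the libraries labelled HSCR proximal 1 and HSCR distal 1 are the brightest in nearly every row, and the columns of HSCR proximal 4, WT distal 4 and HSCR distal 4 are the darkest in most.

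Within groups the SD of log2 CPM had a median of 1.77 over the 35 genes, from 0.81 for Mcm4 and Mcm7 to 3.11 for Cdc20, against a median of 0.88 over 18619 genes tested. Pearson's r between pairs of the 35 genes, over 16 libraries that share their depth and tissue content, had a median of 0.832 and ran from 0.193 to 0.992 over 595 pairs. With the group means removed the median was 0.846. Cdc20, which activates the anaphase promoting complex, followed the others least, with an r of 0.615 to the mean of the other genes. It had no count in WT proximal 2, where 24473017 reads were counted, and 14.4 to 33.2 CPM in the other WT proximal libraries. Ccne1 (cyclin E1) followed next with 0.644, then Mcm4 with 0.728.

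Per kb of gene length the highest member was Pcna, at a mean of 23.1 FPKM over 16 libraries. Next came Ube2c, the ubiquitin-conjugating enzyme of the anaphase promoting complex, at 11.5, Rrm2, a subunit of ribonucleotide reductase, at 10.7, Ccnb2 at 10.5 and Cdc20 at 10.2. The lowest were Cenpe, a kinetochore motor, at 0.857, Cenpf at 1.05 and Bub1, a checkpoint kinase, at 1.42. All 35 genes passed the filter on low counts in every comparison.

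Of the genes that start S phase, E2f1 spanned 48.2-fold from the lowest to the highest library and Ccne1 21.1-fold. E2f1 (chr2:154401327-154411812 on mm39, minus strand), the transcription factor that turns on replication genes, had 29.1, 6.60, 7.44 and 11.8 CPM in WT proximal and 36.0, 15.6, 11.2 and 5.30 in HSCR proximal libraries. Its WT distal libraries had 23.1, 9.15, 8.41 and 1.98 CPM and its HSCR distal libraries 46.2, 14.3, 4.04 and 0.959. Replicate 1 was thus the highest library of every group. Ccne1 lay between 1.24 and 8.84 CPM in 14 libraries, and at 20.8 and 26.1 in those labelled HSCR proximal 1 and HSCR distal 1.

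The smallest spans between libraries belonged to helicase subunits and the sliding clamp, although Mcm2 and Mcm5 spanned 27.3-fold and 28.8-fold. Mcm5 had 30.2, 6.57, 10.1 and 11.8 CPM in WT proximal and 56.1, 41.3, 23.1 and 2.44 in HSCR proximal libraries, so that HSCR held both the highest and the lowest value. In the distal colon it had 30, 13.1, 11.9 and 2.73 CPM in WT and 70.1, 25.7, 8.72 and 3.77 in HSCR. Pcna had 70.7, 39.9, 34.9 and 48.9 CPM in WT proximal and 94.6, 147, 39.4 and 23.4 in HSCR proximal libraries. It had 59.2, 25.3, 34.1 and 27.0 in WT distal and 145, 41.2, 35.3 and 24.7 in HSCR distal libraries. From lowest to highest library Mcm4 spanned 5.57-fold, Pcna 6.30-fold and Mcm7 7.53-fold.

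Most genes of mitosis spanned more. Their fold range between libraries had a median of 87 over 24 genes, from 28.7 (Aurka) upward, against a median of 21.1 and a highest value of 82.8 (Rrm2) over the 11 genes of S phase and replication. Cdk1 had 32.0, 20.5, 11.5 and 43.0 CPM in WT proximal and 73.2, 42.7, 26.3 and 4.94 in HSCR proximal libraries, and 29.5, 12.6, 11.9 and 1.83 in WT distal and 120, 10.3, 22.7 and 1.90 in HSCR distal libraries. Ccnb1 (cyclin B1, the partner of CDK1 in mitosis) had 16.1, 1.1, 7.24 and 16.9 in WT proximal, 42.4, 21.7, 13.2 and 1.55 in HSCR proximal, 12.1, 3.12, 10.0 and 0.427 in WT distal and 65.5, 1.86, 16 and 0.251 in HSCR distal libraries. The HSCR distal libraries thus covered a 261-fold range of Ccnb1, which was its range over all 16. Foxm1, the transcription factor of the mitotic genes, ran from 10.4 to 25.7 CPM in WT proximal and from 3.64 to 18.7 in WT distal libraries. It had 60.8, 9.68, 18.4 and 3.11 in HSCR proximal and 69.2, 9.88, 14.1 and 1.71 in HSCR distal libraries, where replicate 1 alone was above every WT library.

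Mki67 encodes Ki-67, the coat protein of mitotic chromosomes used to stain cycling cells. It had 28.4, 65.7, 28.6 and 54.2 CPM in WT proximal, 200 (replicate 1), 60.9, 53.0 and 4.70 in HSCR proximal, 17.2, 9.57, 28.0 and 3.16 in WT distal and 242 (replicate 1), 16.7, 63.0 and 3.54 in HSCR distal libraries. Top2a (topoisomerase II alpha, which untangles the copied DNA) had 50.4, 18.5, 17.3 and 36.0 in WT proximal and 171, 71.3, 60.6 and 4.17 in HSCR proximal libraries. It had 30.2, 13.9, 28.5 and 1.08 in WT distal and 198, 16.7, 37.6 and 0.776 in HSCR distal libraries. For both genes replicate 4 was the lowest library in 3 groups, and the exception was WT proximal.

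**Figure D2:**
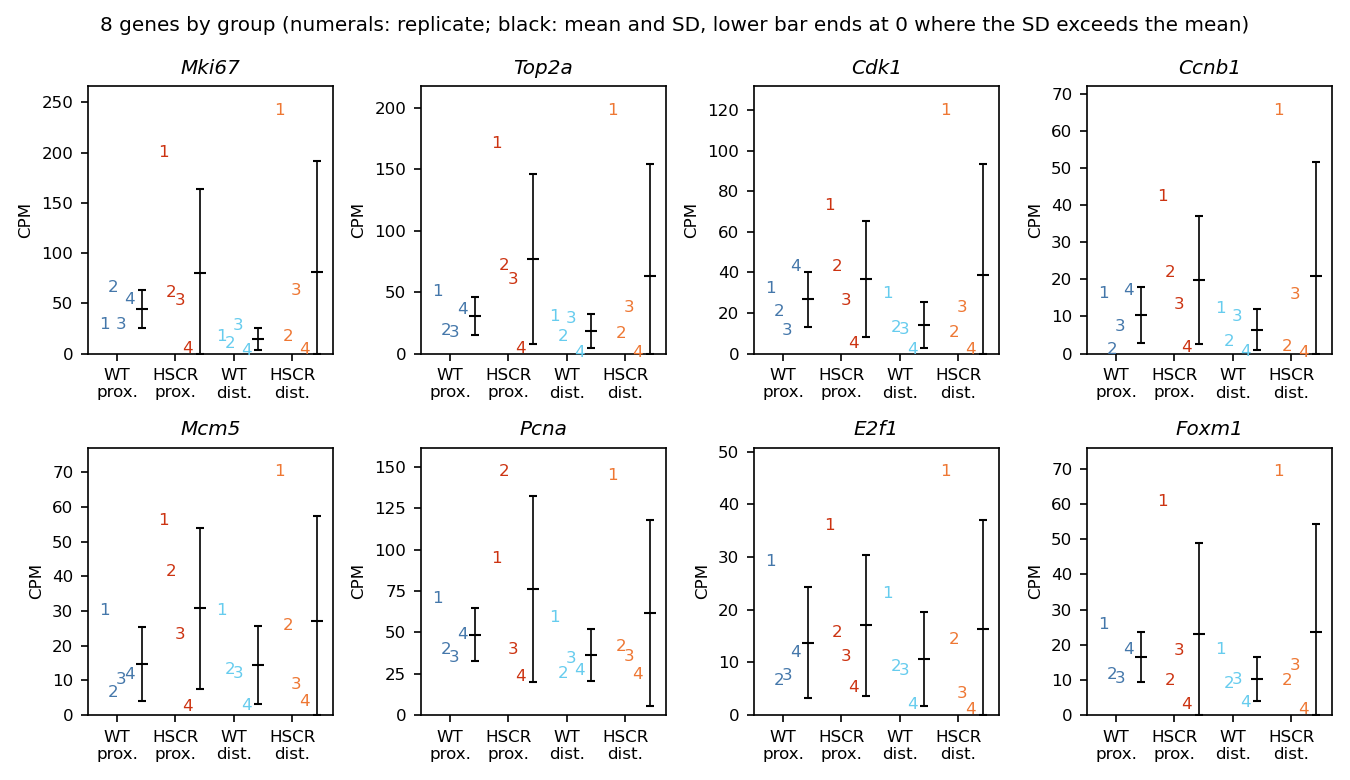
CPM (vertical axis, from 0) of 8 genes in the 4 groups; numerals are the replicate numbers and black bars the mean and SD of 4 libraries. In both HSCR groups replicate 1 lies far above replicate 4 for all 8 genes, for example 242 and 3.54 CPM of Mki67 in HSCR distal.

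The span from the lowest to the highest library grew from replication to mitosis. Spans widen where the lowest value nears 0, as it did for Cdc20 (0 CPM), Bub1 (0.0457) and Aurkb (0.0913). In the genes of S phase and replication the lowest value was 0.959 CPM (E2f1). The part of low counts in the order of the spans was not tested. On the log2 CPM scale, the mean of the 6 helicase genes spanned 3.64, that of Pcna, Rrm2 and Tyms 4.25, that of Ccne1 and E2f1 4.27, and that of the 6 spindle and cytokinesis genes (Kif11, Kif20a, Kif23, Tpx2, Nusap1, Prc1) 5.5. The 6 mitotic kinase and checkpoint genes (Aurka, Aurkb, Birc5, Plk1, Bub1, Bub1b) spanned 5.89, Cenpa, Cenpe and Cenpf 6.42, Cdk1 with the cyclins and Foxm1 6.66, Mki67 with Top2a 7.03 and Cdc20 with Ube2c 7.64. Without the libraries labelled HSCR proximal 1 and HSCR distal 1 the spans were 2.83 for Ccne1 and E2f1, 2.99 and 3.33 for the other replication roles, and 3.83 to 6.48 for the roles in mitosis. The mean log2 CPM of 22 mitotic genes minus that of the 6 helicase genes was 0.12 in WT proximal 4, -0.14 in HSCR distal 3, and -0.43 and -0.67 in the libraries labelled HSCR distal 1 and HSCR proximal 1. It was -3.03 in WT distal 4 and -3.72 in HSCR distal 4, whose mean of the helicase genes, 3.59, was above that of HSCR proximal 4, 2.67. In HSCR distal 4 Aurkb had 4 counts and Bub1 had 2, where Mcm6 had 894.

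**Figure D3:**
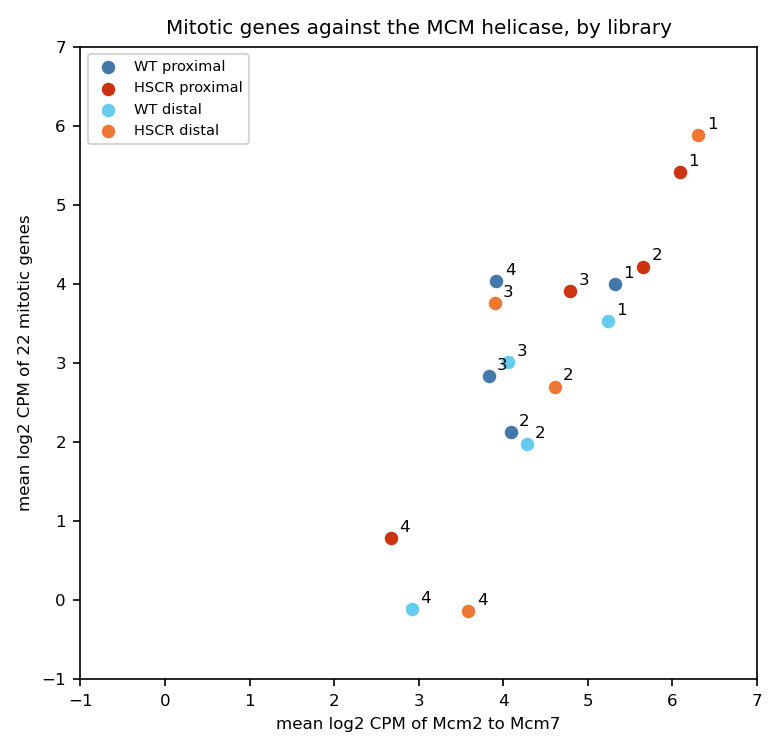
Mean log2 CPM of 22 mitotic genes (vertical) against that of Mcm2 to Mcm7 (horizontal), 1 point per library with its replicate number, coloured by group. WT distal 4 and HSCR distal 4 lie lowest for the mitotic genes, at -0.11 and -0.14. Their helicase means of 2.92 and 3.59 lie above that of HSCR proximal 4, 2.67.

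The proximal comparison asked whether these genes differ in the ganglionated colon of HSCR mice. The fitted log2 fold change, HSCR against WT, was above 0 for all 35 genes, as it was for 53.2% of the 16664 genes tested, and ran from 0.09 (Cenpa) to 1.43 (Bub1b) with a median of 0.79, against 0.04 over all genes. Group means of log2 CPM give a single high library less weight. Between them 25 of the 35 genes were higher in HSCR, with a median difference of 0.34. No member passed an adjusted p of 0.05 in edgeR's quasi-likelihood test (0% of all genes passed), and none had an unadjusted p under 0.05 (2.48% of all genes did with a higher level in HSCR). The smallest p values belonged to the checkpoint kinase Bub1b (log2 fold change 1.43, SE 0.82, edgeR adjusted p 0.765), to Mcm6 (1.14, SE 0.69, adjusted p 0.774) and to the Aurora kinase Aurkb (1.22, SE 0.76, adjusted p 0.777). Bub1b had 12.2, 1.17, 5.53 and 10.9 CPM in WT and 43.8, 13.7, 20.9 and 3.92 in HSCR libraries. For Mki67 the change was 0.82 (SE 0.83) and for Top2a 1.30 (SE 0.84). For none of the 35 genes were the groups apart, which was so, with HSCR higher, for 1.95% of all genes.

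The size of this difference changed with the libraries included. Without the library labelled HSCR proximal 1 the median was 0.08 and 19 of 35 genes were above 0. Without WT proximal 1 as well, the median was 0.42 and 29 genes were above 0. Leaving out HSCR proximal 4, the lowest library, gave a median of 1.15 and 11 genes at an unadjusted p under 0.05 (3.52% of all genes were higher at that limit), still with none past the adjusted limit. Library names of replicates 1 and 2 are of one kind, while replicates 3 and 4 have names of 2 other kinds, both of one kind in WT proximal and 1 of each in HSCR proximal. Within replicates 1 and 2 the median was 1.36 with 35 genes higher, and within replicates 3 and 4 it was -0.22 with 11 higher, both chosen after seeing the data.

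The distal comparison set the distal colon of HSCR mice, called aganglionic in the paper, against the same region of WT mice. All 35 genes again had a fitted log2 fold change above 0 (53.9% of the 17059 genes tested did), from 0.45 (Mcm2) to 2.5 (Mki67), with a median of 1.61 against 0.04 over all genes. Between group means of log2 CPM, 33 of the 35 were higher in HSCR, with a median difference of 0.73. None passed the adjusted limit in edgeR's test (0% of all genes passed). Bub1b alone had an unadjusted p under 0.05, at a log2 fold change of 1.31 (SE 0.58, edgeR p 0.0488, adjusted p 1), where 0.879% of all genes had one with a higher level in HSCR. Mki67 had the next smallest p (2.5, SE 1.16, adjusted p 1), then Nusap1, a spindle microtubule protein (1.61, SE 0.88, adjusted p 1), and the change of Top2a was 1.79 (SE 1.36). By role the median was 0.75 for the helicase genes, 1.58 for Cdk1 with the cyclins and Foxm1, 1.69 for the mitotic kinases and 1.98 for the centromere genes. Without the library labelled HSCR distal 1 these were -0.12, -0.20, 0.56 and 0.16. Without that library, which goes against its label, the median over all 35 was -0.04 and 15 genes were above 0, and without HSCR distal 4 as well, a choice made after seeing the data, it was 0.37 with 29. Without replicate 1 of both genotypes it was 0.40 with 29 above 0, within replicates 1 and 2 it was 1.85 with 35, and within replicates 3 and 4 it was 0.51 with 27.

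**Figure D4:**
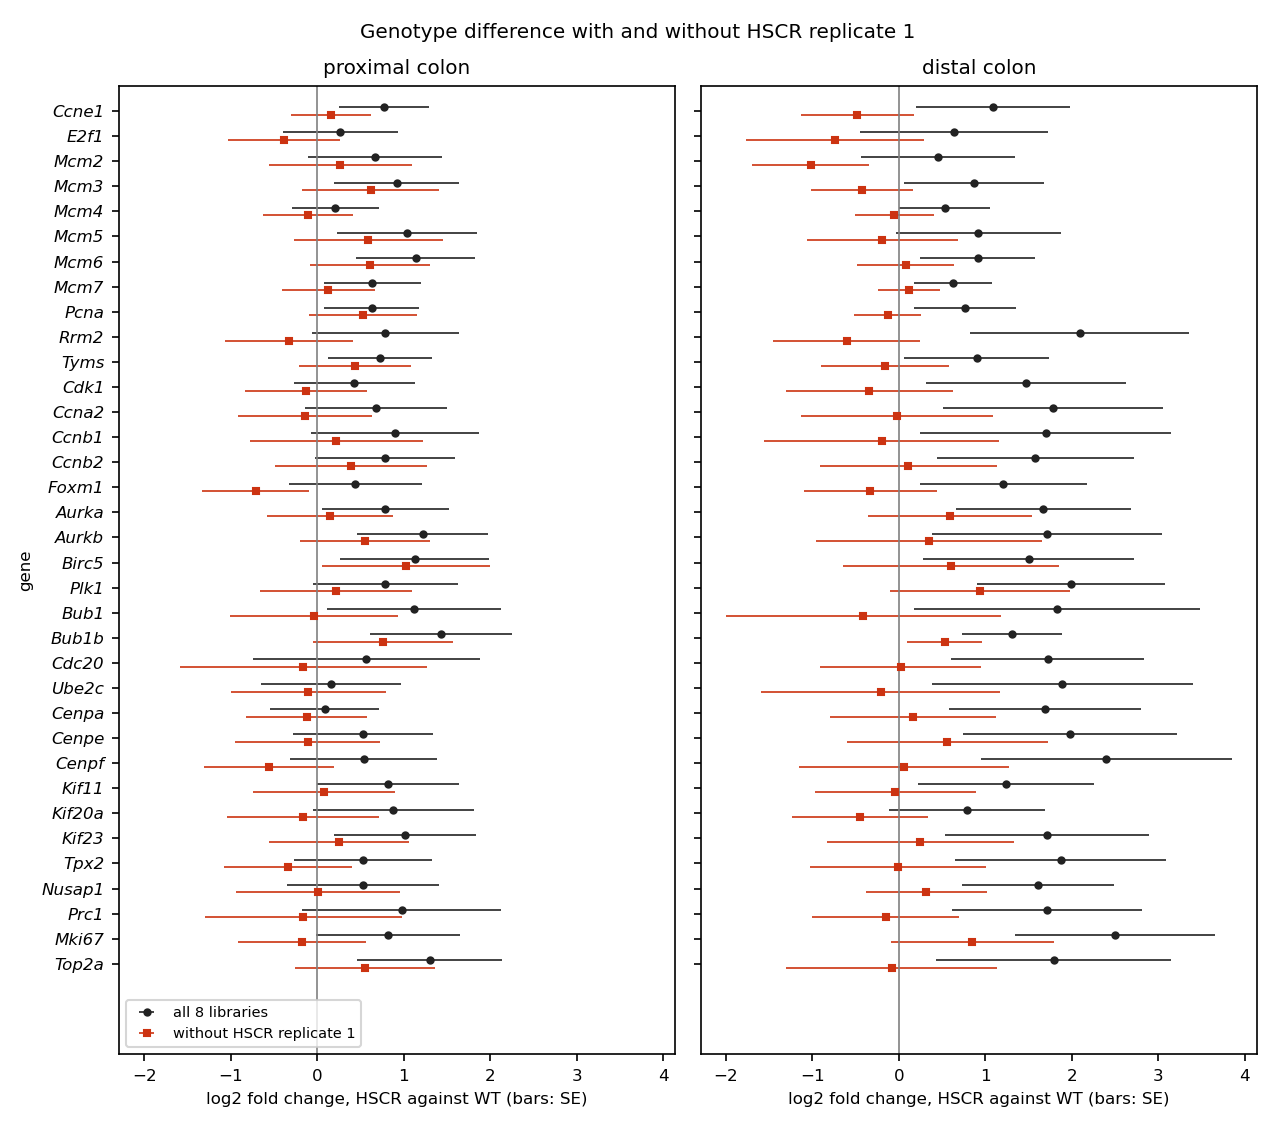
Log2 fold change, HSCR against WT, of each gene with its SE, in the proximal (left) and distal (right) colon, with all 8 libraries (black) and without the HSCR library labelled replicate 1 (red). All 35 black points lie above 0 on both sides, while 19 of the red points do on the left and 15 on the right.

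Whether the genotype difference differed between segments was tested in 1 fit of all 16 libraries. The median of the interaction was 0.70, 28 of 35 genes were above 0 (46.7% of 18619 genes), and none passed at the adjusted limit (0% of all genes) or the unadjusted limit (0.602% of all genes above 0 and 0.843% below). The smallest p values were those of Cenpa, the centromeric histone (1.56, SE 1.35), Mki67 (1.67, SE 1.49) and Cenpf (1.85, SE 1.75), each with an edgeR adjusted p of 1. Without both libraries labelled HSCR replicate 1 the median was -0.25 and 12 genes were above 0.

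Between segments of WT mice most members were lower in the distal colon. The median log2 difference, distal against proximal, was -0.65 against 0.03 over 16566 genes, and 4 of 35 genes were above 0 (51.7% of all genes). No member passed the adjusted limit in edgeR's test (0.00604% of all genes did so with a lower level, and 0.0121% with a higher one). Mki67, with WT proximal libraries at 28.4 to 65.7 CPM and WT distal libraries at 3.16 to 28.0, was the one member whose groups did not overlap, as 1.58% of all genes did with distal lower. Its log2 difference was -1.59 (SE 0.61, p 0.0267, adjusted p 0.906 in edgeR), where 2.06% of all genes were lower at that unadjusted limit. Leaving out 1 library at a time, the median ran from -1.17, without WT distal 1, to -0.33, without WT proximal 1 (9 genes above 0) or WT distal 4 (7 above 0). Rrm2 (-1.45, SE 0.70) and Cenpf (-1.64, SE 0.80) followed, each at an edgeR adjusted p of 0.906. RUVr, which estimates unwanted factors from residuals and is the normalization the Methods name, passed 11 members here, all lower, where it passed 10.1% of all genes as lower.

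Between segments of HSCR mice no difference was detectable, and its direction hung on single libraries. The median was -0.02, 15 genes were above 0 (47.1% of 17086 genes) none passed the adjusted limit (0% of all genes) and none had an unadjusted p under 0.05 (0.708% of all genes were higher and 0.778% lower in the distal colon at that limit). The smallest p values were those of Kif20a, a kinesin of cytokinesis (-0.45, SE 0.99), Pcna (-0.30, SE 0.72) and Cenpe (0.49, SE 1.19), each at an edgeR adjusted p of 1. Without the library labelled HSCR distal 1 the median was -1.53 and 0 genes were above 0. Without the one labelled HSCR proximal 1 it was 0.61 and 33 were.

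The epithelial content of the preparations differed between libraries and was set against the cell cycle genes. Epcam, an adhesion molecule of epithelia, had 133, 14.1, 0.645 and 1.12 CPM in WT proximal and 60.4, 1390, 226 and 8.23 in HSCR proximal libraries. It had 117, 4.27, 45.2 and 5.42 in WT distal and 31.3, 137, 442 and 4.80 in HSCR distal libraries. Krt8, a keratin of simple epithelia, had 473, 15.1, 13.5 and 13.9 in WT proximal, 140, 3630, 728 and 55.3 in HSCR proximal, 710, 33.5, 141 and 44.2 in WT distal and 76.2, 354, 1560 and 25.0 in HSCR distal libraries. The libraries labelled HSCR proximal 1 and HSCR distal 1, the highest in cell cycle genes, were thus in the middle of the order for both markers, and HSCR proximal 2 was the highest. The wider list of 14 epithelial genes had a summed level of 52.8 to 1910 CPM in WT proximal, 195 to 15300 in HSCR proximal, 139 to 2480 in WT distal and 116 to 5580 in HSCR distal libraries. Of these genes, 3 or 4 had no count in each of WT proximal 2 to 4, Cdx2 and Phgr1 in all 3 of them, and none was at 0 elsewhere.

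An epithelial index, the mean log2 CPM of Epcam and Krt8, ran from 1.58 to 11.13. In a fit of all 16 libraries with the 4 group means, the slope of log2 expression on the index was above 0 for 33 of 35 genes (46.4% of 18619 genes), with a median of 0.18 per unit of index against -0.01 over all genes. No member passed the adjusted limit in edgeR's test, where 4.38% of all genes did with a slope above 0, and 1 had an unadjusted p under 0.05, where 10.6% of all genes did. That gene was Birc5 (survivin, of the chromosomal passenger complex), at 0.46 (SE 0.16, p 0.0131, adjusted p 0.160), and the next steepest were Plk1 (0.26, SE 0.18) and Mcm5 (0.24, SE 0.15). The shallowest were Cenpf (-0.06, SE 0.24), Ccne1 (-0.01, SE 0.14) and Kif20a (0.05, SE 0.17), and Mki67 had the same 0.05 (SE 0.21).

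The index itself was 7.97, 3.87, 1.58 and 1.99 in WT proximal and 6.53, 11.13, 8.66 and 4.42 in HSCR proximal libraries. It was 8.17, 3.58, 6.32 and 3.95 in WT distal and 5.61, 7.78, 9.70 and 3.46 in HSCR distal libraries. WT proximal 3 and 4 thus had the lowest epithelial content but middling cell cycle levels, while HSCR proximal 4, WT distal 4 and HSCR distal 4 were low in both.

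**Figure D5:**
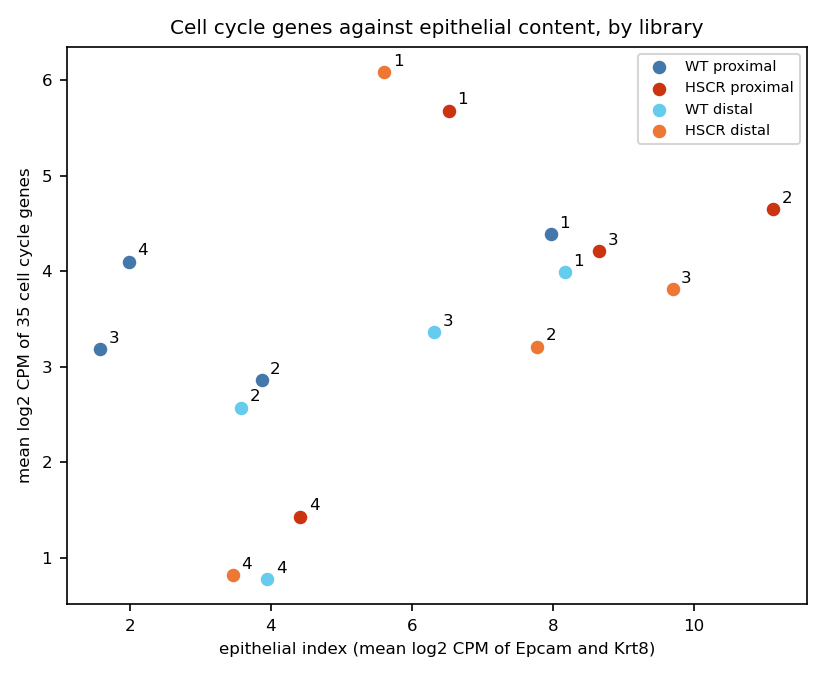
Mean log2 CPM of the 35 genes (vertical) against the epithelial index (horizontal), 1 point per library with its replicate number, coloured by group. The points labelled HSCR proximal 1 and HSCR distal 1 lie above all others, at 5.68 and 6.08, with an index of 6.53 and 5.61, and HSCR proximal 2 has the highest index, 11.13, at a mean of 4.65.

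The slopes were steeper when both libraries labelled HSCR replicate 1 were left out. These 2 held the highest values of most members at an index below their group means, 6.53 against 7.68 and 5.61 against 6.64. They thus pulled the slopes down, and leaving them out raises the slopes by itself. All 35 slopes were then above 0 (46.2% of 19129 genes), from 0.09 to 0.66 with a median of 0.37 against -0.01 over all genes. Of the 35 genes, 9 passed the adjusted limit in edgeR's test (3.74% of all genes did with a slope above 0) and 29 the unadjusted one (10.3%). They were Birc5 (0.63, SE 0.11, adjusted p 0.00475), Tyms, the enzyme that makes thymidylate for DNA (0.33, SE 0.07, adjusted p 0.0221), Plk1 (0.52, SE 0.12, adjusted p 0.0292), Kif11, a motor of the spindle (0.44, SE 0.11, adjusted p 0.0358), Mcm2 (0.34, SE 0.08, adjusted p 0.0373), Pcna (0.22, SE 0.05, adjusted p 0.0373), Nusap1 (0.37, SE 0.09, adjusted p 0.0448), Kif23, a motor of cytokinesis (0.49, SE 0.13, adjusted p 0.0472), and Ccnb2 (0.46, SE 0.12, adjusted p 0.0478). Both replication and mitosis were thus among the 9. Without the library labelled HSCR distal 1 alone, 1 member passed (4.1% of all genes) and 17 had an unadjusted p under 0.05 (10.7%). Without the one labelled HSCR proximal 1 alone, 0 members passed and 10 had an unadjusted p under 0.05 (9.66%). The median slope was 0.26 in the 8 WT libraries alone, with 13 members at an unadjusted p under 0.05 (4.34% of all genes), and 0.02 in the 8 HSCR libraries alone.

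Within each segment, Pearson's r of log2 CPM with the index over 8 libraries was above 0 for all 35 genes. Its median was 0.433 in the proximal colon (0.0928 to 0.749) and 0.512 in the distal colon (0.1 to 0.771), against -0.0475 and -0.0509 over all genes. None of the 70 relations passed after Benjamini-Hochberg adjustment of the permutation p values, of which the smallest adjusted one was 0.411. Without the 2 libraries farthest from the median of the index the median r was 0.375 and 0.413. Without the libraries labelled HSCR proximal 1 and HSCR distal 1, which leaves 7 in each segment, it was 0.464 (0.0483 to 0.807) and 0.764 (0.292 to 0.965), all 35 again above 0. Birc5 had r 0.716 and Spearman's rho 0.738 in the proximal colon (exact permutation p 0.0467 and 0.0458). Its r was 0.445 without the 2 libraries farthest in the index and 0.737 without the library labelled HSCR proximal 1. In the distal colon Birc5 had r 0.771 and rho 0.667 (exact permutation p 0.0341 and 0.0831). There r was 0.754 without the 2 libraries farthest in the index and 0.965 without the one labelled HSCR distal 1.

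With the index as a term, the comparisons gave other medians. The median log2 fold change over the members, HSCR against WT, went from 0.79 to 0.38 in the proximal colon, with 23 of 35 above 0, and from 1.61 to 1.66 in the distal colon, with 35 above 0. In WT mice the median difference between segments went from -0.65 to -1.33, with 1 gene above 0 and 5 lower at an unadjusted p under 0.05 (1.6% of all genes were lower at that limit). In HSCR mice it was -0.01. Without the HSCR libraries labelled replicate 1 as well, the medians with the index as a term were -1.52 in the proximal colon, with 0 genes above 0 and 8 lower at an unadjusted p under 0.05 (1.94% of all genes), -0.90 in the distal colon, with 4 above 0 and 2 lower at that limit (3.25%), and -0.35 between HSCR segments. No member passed the adjusted limit in any of these fits. The 14 epithelial genes all had a log2 fold change above 0 in both genotype comparisons, with a median of 3.1 proximally and 1.18 distally (3.47 and 1.54 without the library labelled HSCR replicate 1), and none passed the adjusted limit. The part of epithelial content in the genotype differences of the cell cycle genes was not tested beyond these fits.

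Marker lists of other cell types were set against the members as well. In fits of the same kind over all 16 libraries, with the mean log2 CPM of a marker list in place of the index, 0 members passed the adjusted limit for any list. On the wider list of 14 epithelial genes the median slope was 0.14. At an unadjusted p under 0.05, 28 members had a slope above 0 on the T cell list (9.75% of all genes), with a median slope of 0.94, and 16 on the macrophage list (10.2%), with a median of 0.85. Of the 7 T cell genes, Cd3d, Cd3e, Cd3g, Trac and Cd8a had no count in 6 to 10 of the 16 libraries and at most 2.94 CPM. Thy1, which other cells of the gut wall also express, gave 70.4% to 99.5% of the summed level. At that same limit 6 members had a slope below 0 on the endothelial list (15.6% of all genes), with a median of -0.71 over the 35, and 4 on the adipocyte list (3.64%), with a median of -0.25. Without both libraries labelled HSCR replicate 1, 15 members passed the adjusted limit with a slope below 0 on the endothelial list (7.46% of all genes, median slope -1.03), 5 with a slope above 0 on the epithelial list (3.58%, median 0.35) and 2 on the macrophage list (1.21%, median 0.72). The T cell and adipocyte lists had 0 such members, at medians of 0.66 and 0.08. None of these lists was tested for its part in the differences between groups.

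Other genes of the cell cycle were counted by role, on lists that hold none of the 35. None of the genes tested, of 113 on 5 lists, passed the adjusted limit in the 4 comparisons or the interaction. Of 36 other replication genes tested, 32 had a log2 fold change above 0, HSCR against WT, proximally and 35 distally, with medians of 0.67 and 0.80. Of 45 other mitosis genes, 43 and 44 were above 0, with medians of 0.69 and 1.65. Without the library labelled HSCR replicate 1 the replication genes had 28 and 12 above 0 (medians 0.24 and -0.14) and the mitosis genes 28 and 24 (medians 0.15 and 0.05). Kif15, a motor of the spindle, had the smallest p of them in the proximal colon (1.82, SE 0.79, edgeR p 0.0457, adjusted p 0.747), and the kinetochore scaffold Knl1 had a change of 2.71 (SE 1.25) in the distal colon. The 10 D cyclins, RB proteins and their kinases had medians of 0.21 and 0.28, and the 14 other E2F and MYB-MuvB genes of 0.42 and 0.33. Without the library labelled HSCR replicate 1 these medians were 0.02 and -0.21, and 0.21 and 0.04. The inhibitors of cyclin-dependent kinases, which hold cells out of cycle, had medians of 0.56 and 0.74 (0.13 and 0.62 without that library), where Cdkn2a was at 2.99 (SE 1.32) proximally and Cdkn2c at 1.28 (SE 0.49, edgeR p 0.0281, adjusted p 1) distally.

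Between segments of WT mice, 5 of 45 other mitosis genes and 8 of 36 other replication genes were above 0, with medians of -0.74 and -0.23, and the kinesin Kif14 had -1.47 (SE 0.56). The 14 other E2F and MYB-MuvB genes had a median of 0.25, with 12 above 0, among them Tfdp2, a partner of E2F proteins (1.05, SE 0.36, edgeR adjusted p 0.906). Between segments of HSCR mice the medians of all 5 lists lay from -0.18 to 0.18, from -1.37 to -0.05 without the library labelled HSCR distal 1 and from 0.24 to 0.65 without the one labelled HSCR proximal 1. On the epithelial index, 33 of the 36 replication and 38 of the 45 mitosis genes had a slope above 0 (46.4% of all genes). Cdkn2b, an inhibitor of the D cyclin kinases, was the one gene of the lists that passed (0.70, SE 0.10, edgeR adjusted p 0.000568), where 4.38% of all genes did with a slope above 0. Without both libraries labelled HSCR replicate 1, 6 replication and 7 mitosis genes passed, all with slopes above 0 (3.74% of all genes).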

How the data were processed

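RNA of 16 LMMP libraries (4 groups of 4) was sequenced by the authors. They deposited read counts per gene (HISAT2 2.2.1 to mm39, featureCounts 2.0.6, per the submitters' notes) and FPKM, made by the authors by scaling counts to gene length and depth. FPKM was used only for levels between genes. Deposited fold changes and p-values were not used. The protocols name stranded as well as non-stranded kits, so antisense reads may be included.

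Groups follow the titles. Genes were filtered with filterByExpr, normalized with TMM and tested with edgeR 4.0.16 (quasi-likelihood, Benjamini-Hochberg limit 0.05, R 4.3.3), fitted per comparison over 8 libraries, and over 16 for the interaction and the slopes. Log2 CPM used a prior count of 0.5. The Methods used RUVr with 4 factors, here an alternative, as were DESeq2 1.42.0, other scalings, the replicate block and left-out libraries. Named genes were the 3 with the smallest p per comparison, with Mki67 and Top2a for genotype, and the 3 steepest and 3 shallowest slopes. Genes whose values are given by library show their role. The members and lists were chosen with earlier results of these data known. The Methods give 4 mice per group, and the labels do not tie libraries to mice. The tests were also run on simulated data, and the outcome is not used here.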

Additional observations from a re-analysis of the deposited data

How the results depend on the processing

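Beside leaving out single libraries, 141 of 151 counts and medians over the members counted as the same. A count had to be 0 again, as in all main fits, and a median had to move by less than 1.61. That is the within-group SD of the mean log2 CPM of the members, divided for slopes by the SD of the index. It was as large as the main median of the distal comparison and larger than the others. Most medians could thus change sign and still count as the same, so this number says little on stability. Of 265 values of named genes, 233 kept their sign and their side of the limit. Of the medians, 2 of 22 had the other sign in the distal comparison, 2 of 21 in the proximal one, 2 of 23 in the interaction, 5 of 18 between HSCR segments, 0 of 17 between WT segments and 0 of 27 for the slope, left-out libraries included. RUVr with 4 factors passed 3 members as higher in HSCR in the proximal comparison (11.2% of all genes passed as higher). It passed 5 as higher in the distal one (4.14% of all genes as higher) and 11 as lower between WT segments (10.1% as lower). DESeq2 passed 1 slope, that of Birc5 (adjusted p 0.00787, where 6.62% of all genes passed with a slope above 0). The number of slopes passing was 0 to 1 without single libraries. It was 9 without both libraries labelled HSCR replicate 1 (3.74% of all genes). There, lists in place of the index gave 5 (epithelium, 3.58%), 2 (macrophages, 1.21%) and 15 (endothelium, 7.46%, with slopes below 0). The cause of these differences was not tested.

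With the index as a term and without the HSCR libraries labelled replicate 1, chosen after seeing the data, the medians were -1.52 in the proximal and -0.90 in the distal comparison. There Bub1b had -0.14, Mcm6 -0.69, Aurkb -1.19, Mki67 -1.72 and Top2a -1.46 proximally, and Mki67 -0.57, Nusap1 -0.21 and Top2a -2 distally. For Mki67 in the proximal colon the log2 fold change was -0.21 without the 2 libraries of replicate 1 and -0.54 in replicates 3 and 4 alone. Between HSCR segments Cenpe had -0.28 without the 2 libraries of replicate 1 and Pcna 0.03 with the epithelial index as a term. The slope of Ccne1 was 0 with DESeq2, 0.01 with upper quartile scaling, 0.01 in distal libraries alone, 0.10 in WT libraries alone and 0.06 without group means. The slope of Cenpf was 0.03 in WT libraries alone and 0.03 without group means. The slope of Kif20a was -0.01 in proximal and -0.14 in HSCR libraries alone.

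Leaving out 1 library at a time, the median over the members in the distal comparison ran from -0.04 to 2.18, Top2a there from -0.08 to 2.2, and Mki67 in the proximal comparison from -0.17 to 1.21. Between HSCR segments Cenpe ran from -0.94 to 1.15, Kif20a from -1.69 to 0.60 and Pcna from -1.20 to 0.24. In the interaction Cenpf ran from -0.51 to 2.95 and Mki67 from 0.00 to 2.66. The slopes ran from -0.06 to 0.05 for Ccne1, from -0.14 to 0.20 for Cenpf and from -0.03 to 0.13 for Kif20a, and were 0.09, 0.34 and 0.21 without both libraries labelled HSCR replicate 1.

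With the replicate number as a replicate block, 0 members passed in any fit, and the medians were 0.48 in the proximal and 0.70 in the distal comparison, -0.76 between WT and -0.50 between HSCR segments, 1.08 for the interaction and 0.05 for the slope. Cenpe between HSCR segments was then 0.00 and the slope of Kif20a -0.10. Between segments of 1 genotype, libraries of the same number deviated together with r over 0.1 in 3 of 4 pairs in WT (0.0956 to 0.419) and in HSCR (-0.000112 to 0.358), and 3 and 2 of them correlated best with their own number. Between genotypes r ran from -0.215 to 0.425. Since not every pair was over 0.1, the numbers were not taken to pair the libraries, although the library names of replicates 1 and 2 also share a number across the 4 groups. The library with the fewest counts held 21384372, and all 35 members passed the filter.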

Other observations

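Growth genes of young tissue, most of them imprinted or fetal (Igf2, H19, Dlk1, Mest, Plagl1, Peg3, Gpc3, Igf2bp1, Igf2bp2, Igf2bp3 and Lin28b), were listed after the data had been seen, and their levels are given without a test. Over these 11 genes mean log2 CPM was 4.66 in the library labelled HSCR proximal 1 and 4.22 in the one labelled HSCR distal 1, the 2 libraries highest in the cell cycle genes. WT distal 2 followed with 3.94 and HSCR distal 2 with 3.66, although their means of the cell cycle genes, 2.57 and 3.21, were not high. The other 12 libraries lay between 1.60 and 3.04.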
